A study of Caenorhabditis elegans with 2 samples.

Results

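The 73 nuclear serine (Ser) and threonine (Thr) tRNA genes of Caenorhabditis elegans were examined for occupancy by RNA polymerase III (Pol III). They were taken from the RefSeq annotation of the WBcel235 assembly, which is the ce11 build, as all nuclear tRNA genes that are not pseudogenic and whose product is tRNA-Ser (39 genes) or tRNA-Thr (34 genes), out of 612 nuclear tRNA genes. Occupancy was read from ChIP-seq, in which DNA bound by a protein is immunoprecipitated and sequenced; the protein was RPC-1, which is the enzyme's largest subunit. Both libraries were biological replicates of 1 group, made from whole young adult worms of mixed sex of strain YL517, whose RPC-1 carries GFP-FLAG at its C terminus; the chromatin was sonicated. The labels do not give the promoter of the tagged gene, whether an untagged copy remained, or whether the worms came from separate cultures, and whole worms average all tissues. One free-text label spells the target PRC-1, while the antibody and strain labels name rpc-1.

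Pol III reaches a tRNA gene through a promoter that lies inside the gene. TFIIIC binds the A box near the start and the B box in the T-arm region, and places TFIIIB upstream, which recruits the polymerase. A run of T residues after the gene ends transcription. Seryl-tRNA synthetase recognizes the long variable arm that sets tRNA-Ser (with tRNA-Leu) apart from most other tRNAs, whereas tRNA-Thr has a short arm and is recognized largely through its anticodon and acceptor stem. The Ser anticodons AGA, CGA and TGA read the UCN codons and GCT reads the separate AGC and AGU codons, while AGT, CGT and TGT read the ACN codons of Thr. Anticodons are written as DNA; in AGA and AGT the A is read as inosine in the mature tRNA.

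The sequences below show how the promoter boxes are spaced in each class and which genes depart from it. Each runs 5′ to 3′ on the gene's own strand, with coordinates on ce11, and is the reference sequence credited to RefSeq. Capitals mark, in order, the A box, the anticodon and the B box. F22B7.t2 (chrIII:8646167-8646248, plus strand) has the sequence shared by 11 Ser-AGA genes, and K03F8.t1 (chrIII:6513937-6514018, minus) is a Ser-CGA gene. C29F7.t2 (chrX:13442643-13442724, plus) is Ser-GCT and differs from the common Ser-GCT sequence by C76T; here and below the common or named sequence's base comes first, and positions count from 1 at the gene's first base. ZK1010.t1 (chrIII:13009423-13009499, plus) is also Ser-GCT. F28F8.t4 (chrV:15547875-15547956, minus) and F28F8.t1 (chrV:15550612-15550693, plus) are Ser-TGA, and F42A10.t2 (chrIII:6158965-6159050, plus) is the longest Ser gene. R04D3.t5 (chrX:13283637-13283708, minus) has the sequence shared by 15 Thr-AGT genes. F55G7.t2 (chrX:11935080-11935151, minus) and T25B6.t1 (chrX:9025663-9025734, minus) are Thr-CGT, T13B5.t2 (chrII:1102360-1102432, minus) is called Thr-TGT, and C52E12.t2 (chrII:7003273-7003344, plus) Thr-AGT.
F22B7.t2: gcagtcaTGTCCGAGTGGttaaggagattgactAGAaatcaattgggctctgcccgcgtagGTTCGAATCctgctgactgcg
K03F8.t1: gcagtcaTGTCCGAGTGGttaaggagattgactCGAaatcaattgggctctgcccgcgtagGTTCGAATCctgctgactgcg
C29F7.t2: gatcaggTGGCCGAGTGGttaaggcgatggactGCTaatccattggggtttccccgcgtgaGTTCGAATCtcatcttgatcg
ZK1010.t1: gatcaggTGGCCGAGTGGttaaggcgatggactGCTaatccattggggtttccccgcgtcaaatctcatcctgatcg
F28F8.t4: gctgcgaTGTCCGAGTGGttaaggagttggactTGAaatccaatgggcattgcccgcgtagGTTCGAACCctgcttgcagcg
F28F8.t1: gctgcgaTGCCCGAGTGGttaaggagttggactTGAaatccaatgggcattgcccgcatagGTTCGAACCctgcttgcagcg
F42A10.t2: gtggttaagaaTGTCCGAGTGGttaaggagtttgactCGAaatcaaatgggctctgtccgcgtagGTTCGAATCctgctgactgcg
R04D3.t5: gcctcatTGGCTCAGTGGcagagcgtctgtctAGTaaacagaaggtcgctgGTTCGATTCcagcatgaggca
F55G7.t2: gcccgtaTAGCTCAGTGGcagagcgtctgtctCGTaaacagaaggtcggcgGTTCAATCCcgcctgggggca
T25B6.t1: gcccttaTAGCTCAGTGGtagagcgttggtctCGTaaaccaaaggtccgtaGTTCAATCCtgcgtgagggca
T13B5.t2: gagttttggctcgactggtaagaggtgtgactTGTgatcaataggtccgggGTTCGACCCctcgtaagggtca
C52E12.t2: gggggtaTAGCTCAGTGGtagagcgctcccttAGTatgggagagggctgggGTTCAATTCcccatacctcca

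Ser genes were longer than Thr genes, and the added bases lay between the boxes. Their median length was 82 bases (range 77 to 86) against 72 (72 to 73) for Thr. The A box and B box started 54 bases apart in Ser genes and 44 in Thr genes wherever both were found, and the stretch of variable arm was 14 bases in Ser against 5 in Thr. The B box motif GTTCNANNC was found in 38 of 39 Ser genes, all but ZK1010.t1, and in all 34 Thr genes, against 95.9% of all nuclear tRNA genes. Motifs were searched on the gene's strand only, and a match is a description of the letters. The A box, searched as 11 bases with T first, G in place 3, A in place 7, G in place 11 and any base elsewhere, starting at gene positions 5 to 15, was found in 33 of 34 Thr genes, all but T13B5.t2, and in 9 of 39 Ser genes (23.1%), against 92.5% of all tRNA genes. Those 9 were the Ser-GCT genes. With any base allowed in place 3, the motif was found in all 39 Ser and again in 33 Thr genes, and in 97.9% of all tRNA genes. This looser form overlaps the first and was chosen after the sequences were seen. The capitals above follow it.

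The flanks of Ser and Thr genes had like terminators and base composition. A run of at least 4 T residues began within 30 bases after the gene in all 39 Ser genes and in 33 of 34 Thr genes, all but W09G10.t3, and in 605 of all 612. The 50 bases upstream had a median of 58.0% A and T in Ser genes, in Thr genes and over all tRNA genes. The 73 genes held 27 distinct sequences, 17 Ser and 10 Thr, against 200 over all 612 tRNA genes. Of the 73 genes, 56 (76.7%) had at least 1 copy of identical sequence elsewhere, against 469 of 612 (76.6%). With 100 bp of flank on each side, a median of 77.7% of the 36-base words of Ser genes and 81.4% of those of Thr genes occurred once in the genome, against 79.7% over all tRNA genes. How reads from identical copies were placed is not given in the sources used here, so the value of 1 copy can include reads from another.

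Nearly all Ser and Thr genes had an RPC-1 summit. In the optimal list, which holds the peaks that ranked alike between the replicates by the irreproducible discovery rate, 70 of the 73 genes (95.9%, Wilson 95% interval 88.6 to 98.6) had a summit within 100 bp of the gene, against a background of 91.2% over all nuclear tRNA genes. All 34 Thr genes had one (interval 89.8 to 100), and 36 of 39 Ser genes did (92.3%, interval 79.7 to 97.3). With a limit of 50 bp the shares were 91.2% for Thr and 82.1% for Ser. No share over all tRNA genes was worked out for that limit, so these shares cannot be set against the background at 100 bp. In the pooled list of both replicates the same number, 70, had a summit, against 92.5% of all tRNA genes, and each had the same signal value as in the optimal list. When any optimal peak interval over the gene counted, all 73 genes were covered, against 96.9% of all tRNA genes. The intervals cover counting error only, and the read depth of the libraries is unknown.

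With the 100 bp limit, RPC-1 signal at Thr genes stood above the middle of all tRNA genes. That at Ser genes stood at the middle with a wider spread, though its place depended on the setting. The signal value is a score that the authors' peak caller assigned and is comparable only within 1 list, so each value is also given as a ratio to the median of all nuclear tRNA genes with a summit in the same list, which was 3073 in the optimal list (quartiles 2041 and 4085). The median of the Thr genes was 3581 (quartiles 2741 and 4410, range 481 to 7177), or 1.17 times that median, with 1.20 in the replicate 1 list and 1.18 in the replicate 2 list (mean 1.19 ± 0.019, SD, n = 2). The median of the 36 Ser genes with a summit was 3077 (quartiles 1690 and 4137, range 167 to 5162), or 1.00 times, with 1.01 and 1.02 in the replicates (mean 1.01 ± 0.0038, SD, n = 2). The ratio of the Ser to the Thr median was 0.859 in the optimal list and 0.840 and 0.863 in replicates 1 and 2, so the gap was larger than the spread between the replicates. It was not tested over genes. The Ser ratio to the tRNA median was 0.858 with a summit within 50 bp, 1.04 within 200 bp and 0.929 with the summit nearest to the start. Among genes with no other tRNA gene or pseudogene within 1 kb it was 0.751. In the same settings the Thr ratio was 1.15, 1.16, 1.17 and 1.12. For these settings the tRNA median was worked out anew under the same setting, so it was not the 3073 above.

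Among the 20 standard isotypes ordered by median signal, Thr was placed 4 in the optimal list and in replicate 1 and 5 in replicate 2, while Ser was placed 11, 11 and 10. Leu, the other large isotype with a long variable arm, was placed 12, 10 and 14, with a median of 3066 over 37 of 39 genes and a mean replicate ratio of 0.988 ± 0.040 (SD, n = 2). Over all genes of each isotype, the mean Ser and Leu ratios differed by less than the SD of Leu between the replicates. This likeness did not hold once genes were split by distance to the closest tRNA neighbour. Where that neighbour lay beyond 1 kb, the mean replicate ratio was 0.770 ± 0.021 for Ser and 1.04 ± 0.034 for Leu (SD, n = 2). Where it lay closer, as for 7 Leu genes, the order was the other way, at 1.27 ± 0.045 and 0.689 ± 0.105. The cause was not tested. Most Ser genes with a closer neighbour had the summit outside the gene, and some shared it, so their values are not those of the gene alone. The highest 25 percent of tRNA genes held 12 of the 34 Thr genes (35.3%) and 10 of the 36 Ser genes (27.8%), against 24.9% of all. The lowest 25 percent held 6 Thr genes (17.6%) and 12 Ser genes (33.3%), against 25.1% of all.

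The 2 replicates ordered the genes alike. Of the members, 69 had a summit in both replicate lists, and their ratios to the tRNA median differed between the replicates by a median of 1.05-fold; 54 were within 10 percent. The largest difference was 1.48-fold, at ZK1010.t1, whose ratios were 0.046 and 0.068. The ratio of the rank in replicate 1 to that in replicate 2 was highest for Y39A1A.t1 (Thr-AGT), at 1.56 (ranks 285 and 183), and lowest for F02D10.t2 (Ser-GCT), at 0.686 (ranks 35 and 51). Across these 69 genes Spearman's rho was 0.987, given as a description, since the genes share 2 libraries and some share a summit.

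**Figure D1:**
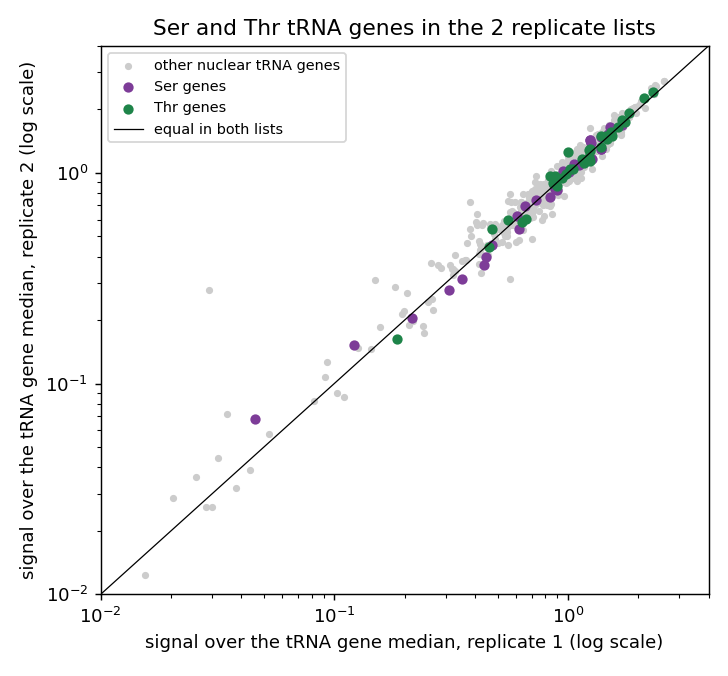
RPC-1 signal at each gene as a ratio to the median of all nuclear tRNA genes in replicate 1 (x axis) and replicate 2 (y axis), both on log scales, with 1 point per gene; Ser genes are purple, Thr genes green, other tRNA genes grey, and the line marks equal ratios. The Ser and Thr genes lie along the line, and ZK1010.t1 is the lowest purple point, at 0.046 and 0.068.

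By anticodon, the Thr-TGT genes had the highest median in the optimal list and in both replicates. The Ser-TGA, Ser-GCT and Thr-CGT genes had the 3 lowest, and Ser-GCT lay below Thr-CGT in the optimal list but not in the replicates. The 10 Thr-TGT genes had a median of 4705, or 1.53 times the tRNA median (1.55 in each replicate). The 17 Thr-AGT genes, which form the largest class, had a median of 3501 (1.14 times; 1.18 and 1.14 in the replicates). The 7 Thr-CGT genes had a median of 2688 (0.87 times; 0.90 and 0.87). The order TGT, AGT, CGT was thus the same in both replicates. The Thr-TGT median was 1.34 times that of Thr-AGT (1.32 and 1.36), and the Thr-AGT median 1.30 times that of Thr-CGT (1.31 and 1.32).

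The Ser classes were closer together. The 6 Ser-CGA genes had a median of 3683 (1.20 times, with 1.18 and 1.20 in the replicates). Of these, C53C7.t2, F42A10.t2, K11H3.t2 and Y7A5A.t4 had a tRNA neighbour within 1 kb and the summit outside the gene. The others, K03F8.t1 and T02G6.t1, had 2035 and 3366. The 12 Ser-AGA genes with a summit, of 15, had a median of 2780, which was 0.90 times the tRNA median in the optimal list but 1.01 and 1.00 times in replicates 1 and 2, whose lists give a summit to 13 and 11 of these genes. The 9 Ser-GCT genes had 2640 (0.86 times, with 0.90 and 0.87 in the replicates). The 9 Ser-TGA genes had 2617 (0.85 times, with 0.88 and 0.83). Ser-GCT was thus slightly the higher in the optimal list and in both replicates. The means of the replicate ratios of these 2 classes differed by less than the SD of Ser-TGA (0.030) but by more than that of Ser-GCT (0.017). Within every class the genes ranged widely, from 2.35-fold among Ser-CGA genes to 30.9-fold among Ser-GCT genes.

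**Figure D2:**
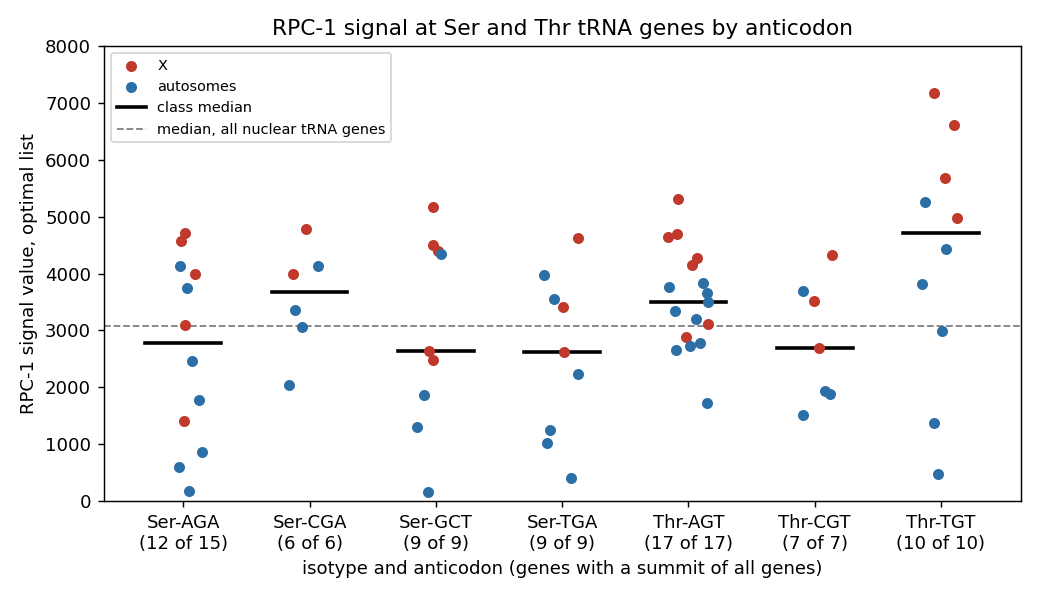
Optimal-list RPC-1 signal value (y axis, linear) of each Ser and Thr tRNA gene by isotype and anticodon, with genes on X in red and on autosomes in blue; black bars are class medians and the dashed line is the median of all nuclear tRNA genes, 3073. The Thr-TGT median of 4705 is the highest bar, and red points lie towards the top of most classes.

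The highest members were Thr genes on X. T25B6.t2 (Thr-TGT, chrX:9024413-9024484, minus strand) had a signal value of 7177, rank 6 of the 558 tRNA genes with a summit, with 4298 in replicate 1 and 2896 in replicate 2 (2.32 and 2.43 times the tRNA median). F38G1.t1, of identical sequence, had 6603 (rank 9; 2.12 and 2.26 times). T25B6.t1, a Thr-CGT gene 1178 bp from T25B6.t2, differs from it by T33C G67A, and the first of these lies in the anticodon. It had 2688 (0.90 and 0.87 times). The highest Thr-AGT gene was R04D3.t5, inside an intron of cyp-14A4, a cytochrome P450 gene, with 5312 (1.75 and 1.75 times). The highest Thr-CGT gene was F55G7.t1 with 4324 (1.38 and 1.49 times).

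Among the Ser genes, F02D10.t2 (Ser-GCT, X) was highest at 5162 (1.71 and 1.68 times), but its summit lay 160 bp from its first base. That summit was 79 bp from F02D10.t2 and nearer, at 46 bp, to the Glu gene rte-5, which lies 124 bp from F02D10.t2. The highest Ser-CGA gene was C53C7.t2 (X) with 4783 (1.52 and 1.66 times). C48C5.t2 (Ser-AGA, X) had 4711 (1.53 and 1.57 times) and T06H11.t1 (Ser-TGA, X, in an intron of the potassium channel gene unc-58) had 4627 (1.52 and 1.53 times). The highest gene of every Ser and Thr anticodon thus lay on X.

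The lowest members were far below the rest of their classes. ZK1010.t1, the Ser-GCT gene shortened to 77 bases and without a B box match, had 167 (rank 548 of 558), with 85.2 in replicate 1 and 81.2 in replicate 2. It lies in an intron of snf-7, a gene of the sodium-dependent neurotransmitter transporter family. K11H3.t1 (Ser-AGA, III) had 184 (rank 546), with 140.2 in replicate 1 and no summit in replicate 2. It lies 333 bp from the Ser-CGA gene K11H3.t2, whose 3062 is the highest of 3 summits in the 1215 bp interval that covers both. R03E1.t1 on X, of identical sequence to K11H3.t1, had 4573, but that summit lay 73 bp from R03E1.t1 and 45 bp from the Asp gene R03E1.t2. The 2 values are therefore not a like comparison. F28F8.t1 (Ser-TGA) had 407 (0.12 and 0.15 times) and differs by T10C G58A from F28F8.t4, 2655 bp away, which had 3549 (1.19 and 1.14 times). T10C is in the A box, and G58A lies ahead of the B box.

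The lowest genes of the other classes were K03F8.t1 (Ser-CGA) at 2035, in an intron of the acetylcholine receptor gene acr-5, F11H8.t1 (Thr-AGT) at 1721, C24H11.t1 (Thr-CGT) at 1520 and T13B5.t2 (Thr-TGT) at 481. T13B5.t2 had 0.19 and 0.16 times the tRNA median in the replicates. It lacks the A box motif, and only 3 of 5 pairs formed in its anticodon stem, so its anticodon is uncertain. It lies 235 bp from a tRNA pseudogene, and its closest gene of another isotype and equal length, the Gly gene C28G1.t3, differs at 38 of 73 bases. The next lowest Thr-TGT gene was C53D6.t1 at 1383. No member lay near the lowest value of the optimal list, 60.0.

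C52E12.t2 is annotated as a Thr gene but is nearer to an Ala gene. It differs from the Ala gene C11E4.t1 only by C35T, the third base of the anticodon, and from its closest Thr gene, C24H11.t1, at 28 of 72 bases. It lies in an intron of unc-104, a kinesin gene, 208 bp from the Ala gene C52E12.t3, and 1 interval with 1 summit covers both. Its signal value was 2726 (0.84 and 0.96 times), with the summit 28 bp upstream of its first base. Whether its product is charged with Thr was not tested.

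The 3 genes without a summit in the optimal list, F22F1.t2, F22F1.t4 and C53C7.t1, were all Ser-AGA genes on X with the sequence of F22B7.t2, and all lay under the peak of a neighbour. F22F1.t2 (chrX:8154445-8154526, plus) and F22F1.t4 (chrX:8155462-8155543, plus) are the Ser and Thr genes in clusters of at least 3 tRNA genes with gaps of at most 1 kb. One interval of 3059 bp (chrX:8154048-8157106) covers the 6 genes of the cluster with 4 summits. These lie at the Asp genes F22F1.t3 (4030) and F22F1.t5 (3138), the Ile gene F22F1.t7 (3042) and the Met gene F22F1.t6 (180). The nearest summit was 145 bp from F22F1.t2 and 218 bp from F22F1.t4, and neither had a summit within 100 bp in any list. C53C7.t1 (chrX:13046578-13046659, plus) lies 130 bp from C53C7.t2 under an interval of 1047 bp with 1 summit, 103 bp away. In replicate 1 that summit fell within reach of C53C7.t1 (1.52 times the tRNA median). The number of Ser genes with a summit therefore depended on the 100 bp limit, and that of Thr genes also fell with a limit of 50 bp.

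Summits were shared by other close neighbours as well. Of the 70 members with a summit, 9 (6 Ser and 3 Thr) had 1 that was also within 100 bp of another tRNA gene, and the 70 had 68 distinct summits. The share over all tRNA genes was not worked out, so this sharing is not shown to be particular to the members. The 3 Thr genes, C16C8.t2, W09G10.t3 and W10G11.t2, lay 71, 60 and 54 bp from summits that were 33, 33 and 29 bp from Lys genes. The Ser genes Y7A5A.t1 and Y7A5A.t4 shared a value of 4000, and F42A10.t1 and F42A10.t2 shared 4137. A neighbour within 1 kb was present for 15 of 39 Ser genes and 6 of 34 Thr genes (38.6% of all tRNA genes). The 12 of these Ser genes with a summit had a median of 4000, against 2354 for the 24 without a neighbour, a ratio of 1.70 (1.58 and 1.72), while the ratio over all tRNA genes was 0.932. Of the 15, 11 lay on X. Within X the medians were 4000 with a neighbour (8 genes) and 4395 without (7 genes), and on autosomes 3600 (4 genes) and 1863 (17 genes). Both medians of 4000 are the summit shared by Y7A5A.t1 and Y7A5A.t4, counted for each gene. Of the 12 genes, only C29F7.t2 and K02A4.t1 had the summit inside the gene. The medians with a neighbour are thus not a like comparison with those without.

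The X chromosome carried 18 of 39 Ser genes (46.2%) and 14 of 34 Thr genes (41.2%), against 45.1% of all tRNA genes, and its members had the higher signal. The 15 Ser genes on X with a summit had a median of 4000 and the 21 on autosomes 2035, a ratio of 1.97 (2.04 and 1.98 in the replicates). The 14 Thr genes on X had a median of 4484 and the 20 on autosomes 3096, a ratio of 1.45 (1.51 and 1.47). Over all tRNA genes the medians were 3796 and 2633, a ratio of 1.44 (1.46 and 1.40), and the ratio for Leu was 1.51 (1.51 and 1.36). The Ser ratio was thus above that of all tRNA genes by more than its spread between replicates. It was not tested over genes, and the ranges on X and autosomes overlapped in both isotypes. The autosomes were not alike for Ser genes. Their mean replicate ratio to the tRNA median was 0.74 on I, 0.69 on II, 0.91 on III, 0.31 on IV and 1.24 on V, against 1.38 on X. Each autosome carried few Ser genes, from 2 (II) to 8 (III).

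On chromosome IV, the 4 Ser genes had 605, 863, 1030 and 1250, and the single Thr gene 1383, all below the median of the 68 tRNA genes with a summit there, 2671. They are Y73F8A.t4, Y73F8A.t3, Y51H4A.t2 and Y51H4A.t6, and C53D6.t1. Only 31.6% of the 36-base words in and around Y51H4A.t2 and Y51H4A.t6 occurred once in the genome, the lowest share among the members. Its part in their signal was not tested. The highest autosomal members were F52C9.t1 (Thr-TGT, III) at 5261 and ZK262.t1 (Thr-TGT, V) at 4439. The highest autosomal Ser gene was K04A8.t2 (Ser-GCT, V), in an untranslated exon of the lipase gene lipl-4, at 4338.

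Genes of identical sequence differed widely in signal. The 8 Ser-AGA copies with a summit, of 11, ranged from 605 (Y73F8A.t4) to 4711 (C48C5.t2), or 7.79-fold, and the 7 Ser-GCT copies from 1309 (C37A5.t1, on I) to 5162, or 3.94-fold. The value of 5162 is that of F02D10.t2, whose summit lay nearer to rte-5. The 15 Thr-AGT copies ranged from 1721 to 5312, or 3.09-fold, and the 9 Thr-TGT copies from 1383 to 7177, or 5.19-fold. These folds exceed the largest difference between the replicates, 1.48. Copies on X had the higher median in all 4 families, with an X to autosome ratio of 1.84 (2.08 and 1.97) for Ser-AGA, 2.39 (2.39 and 2.39) for Ser-GCT, 1.31 (1.42 and 1.38) for Thr-AGT and 1.61 (1.61 and 1.63) for Thr-TGT. Only 2 of the 5 Ser-AGA copies on X had a summit. The 4 Thr-TGT copies on X had 4971 to 7177, and of the 5 on autosomes only F52C9.t1 reached that range.

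**Figure D3:**
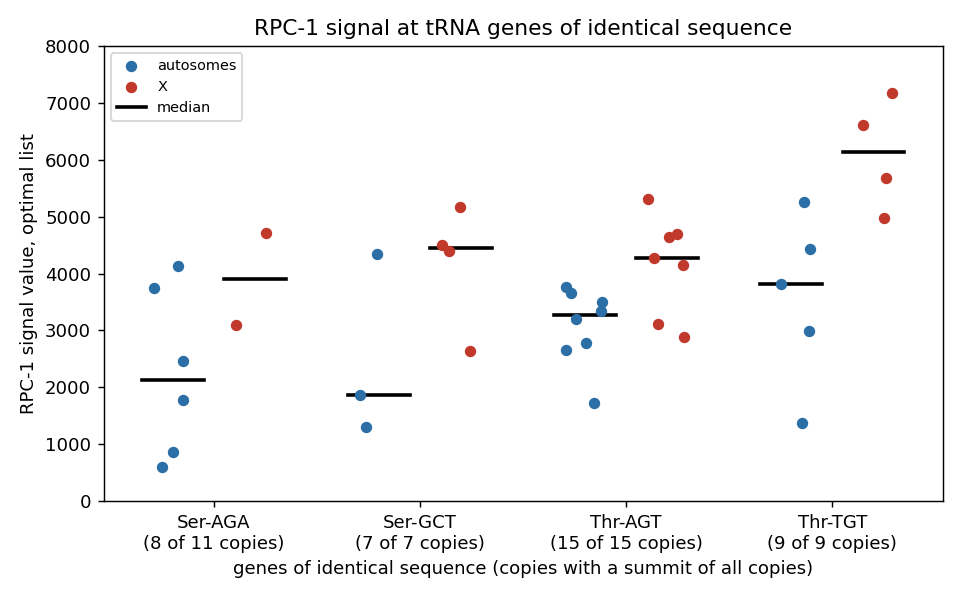
Optimal-list RPC-1 signal value (y axis, linear) of the tRNA genes in the 4 largest families of identical sequence, with autosomal copies in blue, copies on X in red, 1 point per gene and black bars for medians. The red bar is the higher in each family, and the blue and red points overlap in each.

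Of the members, 15 Ser and 16 Thr genes lay inside protein-coding genes (38.5% and 47.1%, against 47.5% of all tRNA genes), 28 of them in introns and 3 in untranslated exons. The median of Ser genes inside a host was 0.774 times that of the others (0.796 and 0.837), and of Thr genes 0.891 times (0.832 and 0.975), against 0.825 over all tRNA genes. Within X (5 genes inside, 10 outside) and within autosomes (10 and 11) the Ser ratio was 1.10 and 1.21, so the lower pooled value did not hold within either. It was also reversed, at 1.42, among genes with no other tRNA gene or pseudogene within 1 kb. The Thr ratios were 0.902 within X and 1.15 within autosomes. Over all tRNA genes they were 1.04 within X and 0.835 within autosomes, so there the lower value did hold on autosomes.

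Members on the strand of their host had a lower median than those on the opposite strand, except among Thr genes on X. The 7 Ser genes on the same strand had a median of 2035 and the 8 on the opposite strand 4157. The 9 Thr genes on the same strand had 2785 and the 7 on the opposite strand 3762. Over all tRNA genes the medians were 2658 and 2996, and for Leu 2192 and 3380. On autosomes alone, the medians were 2035 (5 genes) and 3062 (5 genes) for Ser and 2756 (8 genes) and 3553 (4 genes) for Thr. On X they were 2025 (2 genes) and 4509 (3 genes) for Ser, while the single Thr gene on the strand of its host had 5312 and the 3 on the opposite strand a median of 4151. With X and autosomes together, the groups overlapped in both isotypes.

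The summit lay near the A box in most members without a close tRNA neighbour, 5 to 20 bp from the gene start in 21 of 27 Thr genes and 16 of 24 Ser genes, against 273 of 358 tRNA genes of all isotypes. Distances are given from the first base of the gene in the direction of transcription. In these 27 Thr genes, with no other tRNA gene or pseudogene within 1 kb, the median was 14 bp (quartiles 12 and 16), and 26 of the summits fell inside the gene. For the 24 such Ser genes the median was also 14 bp, with quartiles of 11 and 30.8, and 19 fell inside. Over 358 such tRNA genes of all isotypes the median was 13 bp (quartiles 11 and 16), and 91.1% fell inside. The longer Ser gene was thus not accompanied by a different median position.

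Some Ser summits lay further downstream. In 6 of the 24 Ser genes the summit was more than 40 bp past the start, at 105 bp in Y73F8A.t3, 101 bp in Y51H4A.t2, 96 bp in Y73F8A.t4, 84 bp in ZK1010.t1, 75 bp in C37A5.t1 and 72 bp in K03F8.t1. These 6 had a median signal of 946, and the 16 Ser genes with the summit 5 to 20 bp from the start had 3458. Over all tRNA genes without a neighbour, 43 of 358 lay past 40 bp, with a median signal of 2688 against 3366 at 5 to 20 bp, and for Leu 4 of 30 did, with 2587 against 3539. In the replicates the Ser medians were 573 against 2135 and 353 against 1522. In replicate 1 the summit of C37A5.t1 lay at 14 bp, so its position was not stable, while the other 5 were past 40 bp in both. Among the 27 Thr genes, 2 were past 40 bp, T25B6.t1 at 54 bp and F14F7.t1 at 53 bp, with 2688 and 3686; in replicate 2 that of T25B6.t1 lay at 13 bp.

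**Figure D4:**
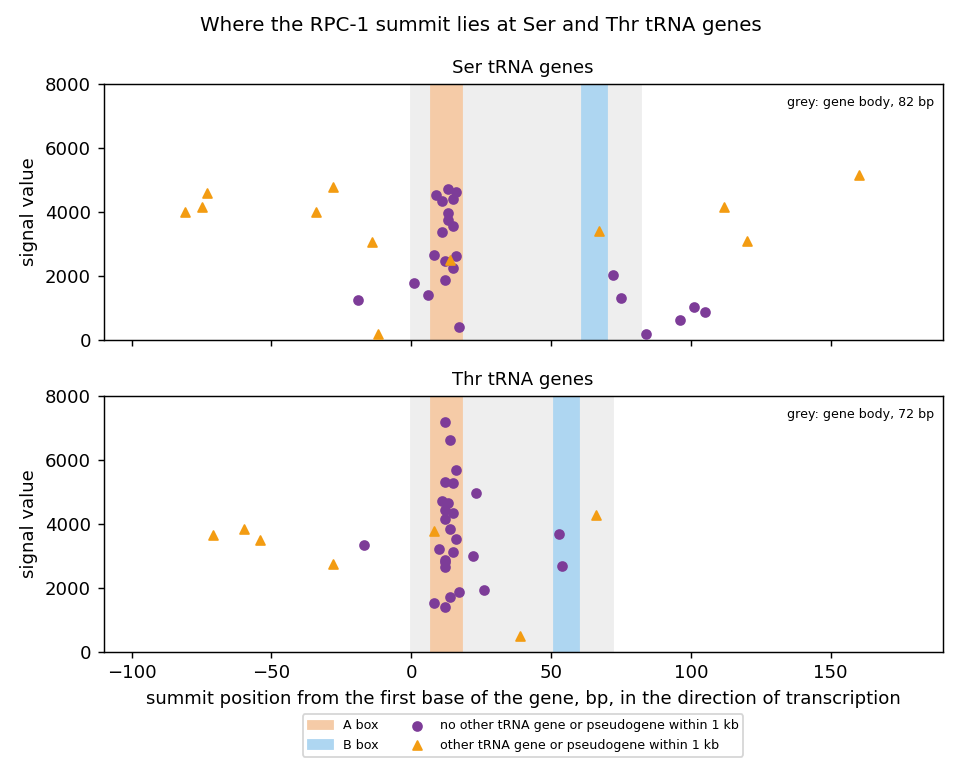
Summit position from the first base of the gene (x axis, bp in the direction of transcription) against optimal-list signal value (y axis) for Ser genes (top) and Thr genes (bottom); grey marks the gene body, orange the A box and blue the B box of the typical gene. Genes without a tRNA neighbour (purple circles) sit mostly at the A box, at a median of 14 bp in both panels, and the 6 such Ser genes past 40 bp lie low, at a median signal of 946.

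The genes for charging these tRNAs had no optimal summit. The list comprised sars-1 and sars-2, the cytoplasmic and mitochondrial seryl-tRNA synthetase genes, tars-1, the threonyl-tRNA synthetase gene, and secs-1, which encodes the enzyme that turns Ser on the selenocysteine tRNA into selenocysteine. None of these 4 protein-coding genes had a summit within 500 bp of a transcript start, against 1.72% of 19971 protein-coding genes. In the pooled list, which also keeps weak peaks, their nearby summits had signal values of 10.8 (sars-1), 9.48 (sars-2), 13.7 (tars-1) and 9.69 (secs-1), against 3388 as the median of the members. The share of all protein-coding genes with such a pooled summit was not worked out, so these summits set the 4 genes apart from no others. In the replicate lists, tars-1 had none in replicate 1 and secs-1 none in replicate 2. The selenocysteine tRNA gene K11H12.t1 (chrIV:658181-658266, plus strand, 86 bases), whose tRNA is first charged with Ser, had 928, or 0.30 times the tRNA median (0.26 and 0.37 in the replicates), rank 516 of 558, with its summit 30 bp from the start.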

How the data were processed

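The deposited files are peak lists on ce11. As the deposited file descriptions record, a replicate's list came from that replicate's alignments with a control, the pooled list from both replicates, and the optimal list from these 3 through the irreproducible discovery rate. For the aligner, the caller, their versions and the threshold, nothing is given in the sources used here. Control libraries were not analysed here. The signal value (column 7) is a score that the authors' peak caller gave each peak, with no fixed range. The optimal list held 2123 peaks, the pooled list 24907, and the lists of replicates 1 and 2 held 26455 and 27629. Depth is unknown.

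Each gene received the highest signal value among peaks whose summit (column 2 plus column 10) lay within 100 bp of it. With 1 group there was no contrast, so no test was run. Values are medians, ranks and ratios to the tRNA median of the same list, with replicate lists as the error, and ± is the SD over 2 replicates. Where nothing says the replicates came from separate cultures, this spread may be technical. Anticodons are not in the annotation and were read by a script (stem of 5 pairs, loop of 7 bases, T before the anticodon, codons of the annotated isotype). The assignment was tested on simulated peaks. Python 3.11.15, numpy 2.4.6 and matplotlib 3.10.9 were used.

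The members and lists were chosen with earlier results of these data known. Named by rule were the highest and lowest gene of each anticodon, genes without a summit, the extremes of rank change between replicates, genes in clusters of at least 3, and the charging genes with the selenocysteine tRNA gene. Every other gene named, such as T25B6.t1, F38G1.t1, R03E1.t1, F28F8.t4, C52E12.t2, the genes on chromosome IV, those with shared or distant summits, and host or neighbouring genes, was chosen after its values were seen. Alternatives were other windows, interval overlap, a stricter threshold, the nearest summit, single replicates, and genes without a neighbour.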

Additional observations from a re-analysis of the deposited data

How the results depend on the processing

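No paired analysis was possible because all libraries belong to 1 group. Of 80 alternatives over 20 results, 41 stayed within the replicate spread or the counting interval, 38 moved beyond it and 1 reversed. The spread comes from 2 libraries and was small. Some of the 41 could not move, since the members have the same values in the pooled and optimal lists and ratios between members are then equal. Medians and ratios from single replicates were judged against a spread taken from those same replicates. The counts are therefore no measure of how robust the results are. The share of Ser genes with a summit was 97.4% within 200 bp and 100% by interval overlap. Over all tRNA genes it was 96.9% by interval overlap and was not worked out within 200 bp. For the ratios below, the tRNA median was worked out anew in each setting. With a summit within 50 bp the ratio to the tRNA median was 0.858 for Ser, 1.15 for Thr, and 0.749 for Ser over Thr. Within 200 bp it was 1.04 for Ser and 0.902 for Ser over Thr. With the summit nearest to the start it was 0.929 for Ser and 0.796 for Ser over Thr. With genes that have no summit set to 0 it was 0.907 for Ser and 1.23 for Thr. In the pooled list it was 1.01 for Ser, 0.910 for Ser-AGA and 1.54 for Thr-TGT. With only genes that have no tRNA neighbour within 1 kb it was 0.751 for Ser, 1.12 for Thr and 0.670 for Ser over Thr; the X to autosome ratio was 2.36 for Ser and 1.61 for Thr, the median summit position was 14.0 bp for Ser and 14 bp for Thr, and the Ser ratio inside over outside hosts reversed from 0.774 to 1.42. The cause was not tested. With either replicate left out, the ratio to the tRNA median ran from 1.01 to 1.02 for Ser, 1.18 to 1.20 for Thr and 0.840 to 0.863 for Ser over Thr. By anticodon it ran from 1.00 to 1.01 for Ser-AGA, 1.18 to 1.20 for Ser-CGA, 0.872 to 0.897 for Ser-GCT, 1.14 to 1.18 for Thr-AGT, 0.867 to 0.896 for Thr-CGT, and was 1.55 in each case for Thr-TGT. The X to autosome ratio ran from 1.98 to 2.04 for Ser and 1.47 to 1.51 for Thr, the Ser host ratio from 0.796 to 0.837, and the median Ser summit from 12 to 13 bp. The looser A box, added after the sequences were seen, gave 100% of Ser genes. The lists on ce10 were not used here. Depth is unknown, so no limit from it can be given.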
